A study of Mus musculus with 4 samples.

Results

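The genes described are the ligand *Igf1*, the receptors *Igf1r* and *Igf2r* and the IGF-binding protein genes *Igfbp2*, *Igfbp3*, *Igfbp4*, *Igfbp5*, *Igfbp6* and *Igfbp7*, in single cells of fetal mouse hindlimbs. They were chosen by symbol, and all 9 were among the 32288 features of the count tables. Cells of E14.5 hindlimbs were sorted by tdTomato into 4 libraries: S1 (tdT+) and S2 (tdT-) of collection 1, and S3 (tdT+) and S4 (tdT-) of collection 2. All embryos carried the *Gli1CreER*, *R26LSL-tdTom* and *TigreTRE-p21* alleles, each in 1 copy, and *Pan-Cart-p21MOE* embryos also carried *Col2a1-rtTA*, which controls lacked. *Col2a1-rtTA* turns on the p21 transgene in cartilage under doxycycline, which all mothers received from E12.5 (1 mg/ml in water, and in food), and tamoxifen at E13.5 (120 µg/g) let *Gli1*-expressing cells and their descendants be marked with tdTomato. Within a library the conditions were of opposite sex (male *Pan-Cart-p21MOE* with female control in S1 and S2, the reverse in S3 and S4), so the condition of a cell was read from its *Xist* and Y-linked counts. The 8 pseudobulks (4 libraries in 2 conditions) thus came from 2 embryo pools per condition, and the study's methods list 1 embryo for the female *Pan-Cart-p21MOE* pool.

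IGF-I and IGF-II act through the tyrosine kinase receptor IGF1R to promote growth of cartilage and bone, whereas IGF2R binds IGF-II and carries it to lysosomes. Binding proteins hold IGFs in the matrix and in solution, and can limit or prolong their action, and IGFBP7 is a related protein with low affinity for IGFs. In the growing limb, resting chondrocytes at the ends of the cartilage give rise to proliferative, then prehypertrophic and hypertrophic chondrocytes, and perichondrium and looser connective tissue surround them.

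Of 2739 cells kept, 804 were in the chondrocyte class, and the 4 libraries held 359 to 991 kept cells with medians of 16381 to 26992 UMIs. Kept libraries shared at most 1 cell barcode. Clusters were made without the 9 genes and named from marker lists with the suffix "-like". Of these cells, 204 were resting chondrocyte-like (6 of 6 markers at more than 1.5 times their level in the other cells), 508 proliferative chondrocyte-like (6 of 6) and 92 prehypertrophic or hypertrophic chondrocyte-like, with *Col10a1*, *Panx3* and *Ihh* among the leading genes. The last cluster had 2 cells in S1. It also had 6 of 6 endothelial markers above the other cells (498 CPM summed, against 95.5), and 7 of its 92 cells carried mainly endothelial markers. Outside the chondrocyte class, 158 cells were interzone or articular-like, 316 had perichondrial and osteoprogenitor markers at nearly equal scores, 53 were osteoprogenitor-like, 213 connective tissue fibroblast-like, 131 tenocyte-like, 50 muscle-like and 31 immune-like, and 10 clusters stayed unnamed. The connective tissue fibroblast-like cluster scored 1.39 for that type and 1.26 for pericyte or smooth muscle. It had 5 of 6 fibroblast markers above the other cells, and 4 of 5 pericyte or smooth muscle markers (157 CPM summed, against 54.7). At resolution 1.5, a cluster of 130 cells led by *Tmeff2* and *Akap12* scored best as pericyte or smooth muscle (1.62, against 1.41 for fibroblast) and stayed unnamed. The tdTomato transcript separated the sorted fractions in chondrocytes, at 18.8 ± 4.67 CPM (UMIs per 1000000 UMIs of the pseudobulk, SD, n = 4) in tdT+ and 1.28 ± 0.565 CPM in tdT- cells. *Cdkn1a*, the gene of p21, was at 69.0 ± 4.21 CPM in *Pan-Cart-p21MOE* chondrocytes and 56.3 ± 28.0 CPM in controls, with overlapping values (edgeR's quasi-likelihood test, adjusted p = 0.702), so it did not check the assignment of cells to conditions. According to the paper, most reads of the p21 and tdTomato transgenes fell on WPRE, a sequence shared by both. *Cdkn1a* counts could therefore miss the transgene.

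*Igf1*, encoding the secreted ligand, was high in connective tissue fibroblast-like, perichondrium/osteoprogenitor-like and tenocyte-like cells and was nearly silent in cartilage. In connective tissue fibroblast-like cells it was at 835, 374, 533 and 409 CPM in S1 to S4, a mean of 538 ± 210 (SD, n = 4). Perichondrium/osteoprogenitor-like cells had 265, 273, 235 and 213 CPM, and tenocyte-like cells 157, 377 and 231 CPM in S2 to S4. Every library of these 3 classes lay above every library of the chondrocyte-like and interzone-like classes. Resting chondrocyte-like cells had 7.46, 5.96, 7.61 and 7.54 CPM, proliferative ones 12.4 ± 4.89, interzone or articular-like cells 11.0 ± 6.70 and prehypertrophic or hypertrophic ones 31.3 ± 22.4 (n = 3). In barcodes under 1000 UMIs, which hold free RNA and damaged cells, *Igf1* was at 44.3 to 105 CPM per library, above all of its values in resting and proliferative cells. How much of those small values came from free RNA was not tested. The immune-like cells, measured in S4 alone, had 98.3 CPM.

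The receptors were spread over all classes. Among the named classes, *Igf1r* ranged from 182 CPM in immune-like cells (S4 alone) to 518 ± 93.6 CPM in muscle-like cells (n = 2), with 493 ± 69.2 CPM in interzone or articular-like cells (n = 4). With the unnamed clusters it ran from 146 ± 41.1 CPM (cluster 6, n = 4) to 617 CPM (cluster 16, S3 alone). Within cartilage it was at 272, 357, 260 and 223 CPM in resting chondrocyte-like cells in S1 to S4, and at 386, 373, 366 and 386 CPM in proliferative ones. The class sums were thus higher in proliferative than in resting cells, but the clusters of the proliferative class differed. In the control embryo pools, cluster 4 (led by *Epyc*, *Matn1* and *Chad*) had 125 and 126 CPM, below the 331 and 236 CPM of the resting cluster, and cluster 5, with no proliferative marker among its 10 leading genes, had 745 and 657 CPM. Each pair of neighbours in the order of the named classes overlapped except tenocyte-like above immune-like cells, whose single value gives no spread. *Igf2r* ran, among the named classes, from 171 ± 32.2 CPM in muscle-like (n = 2) to 287 ± 9.88 CPM in perichondrium/osteoprogenitor-like cells. With the unnamed clusters it ran from 140 ± 11.2 CPM (cluster 6, n = 4) to 397 CPM (cluster 19, S4 alone). Its class sums were 175, 218, 175 and 197 CPM in resting and 293, 260, 311 and 276 CPM in proliferative chondrocyte-like cells. Here too the control pools of cluster 4 (110 and 96.5 CPM) were below the resting cluster (212 and 156 CPM), and those of cluster 5 above it (602 and 458 CPM). With clusters made at resolution 0.5, both receptors were highest in resting chondrocyte-like cells among the named classes, so the order of these zones depended on how cells were clustered. The lowest of these values for either receptor was above that in barcodes under 1000 UMIs (52.9 to 65.3 CPM for *Igf1r* and 73.8 to 92.6 CPM for *Igf2r*).

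*Igfbp5* differed between the chondrocyte zones. It was at 659, 631, 528 and 764 CPM in resting chondrocyte-like cells, at 236, 248, 210 and 175 CPM in proliferative ones, and at 51.1, 47.1 and 98.8 CPM in prehypertrophic or hypertrophic ones (S2 to S4), and no library of one zone overlapped with the next. The proliferative class, made of clusters 4 and 5 and of cluster 12, led by *Neat1*, was uneven for this gene as well. In control cells the 2 embryo pools gave 140 and 94.8 CPM in cluster 4, 56.5 and 46.8 CPM in cluster 12, and 779 and 707 CPM in cluster 5, beside 768 and 939 CPM in the resting cluster. Outside cartilage, *Igfbp5* was at 555 ± 178 CPM in connective tissue fibroblast-like cells, 531 ± 88.4 in perichondrium/osteoprogenitor-like and 466 ± 72.8 in interzone or articular-like cells (n = 4 each), which overlapped with one another and with resting cells. Barcodes under 1000 UMIs had 233 to 364 CPM, above all prehypertrophic or hypertrophic values and 2 of the 4 proliferative ones.

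*Igfbp4*, which binds both IGFs and is cleaved by the protease PAPP-A, was higher in connective tissue than in cartilage. It was at 708, 803, 817 and 654 CPM in connective tissue fibroblast-like cells, 780, 803 and 709 CPM in tenocyte-like cells (S2 to S4) and 644 ± 96.4 CPM in perichondrium/osteoprogenitor-like cells. The chondrocyte zones had 230 ± 30.4 CPM (resting), 187 ± 18.2 (proliferative) and 171 ± 51.3 (prehypertrophic or hypertrophic, n = 3), and these 3 overlapped. All stromal values were above all cartilage values, which lay within or below the 202 to 381 CPM of barcodes under 1000 UMIs.

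**Figure D1:**
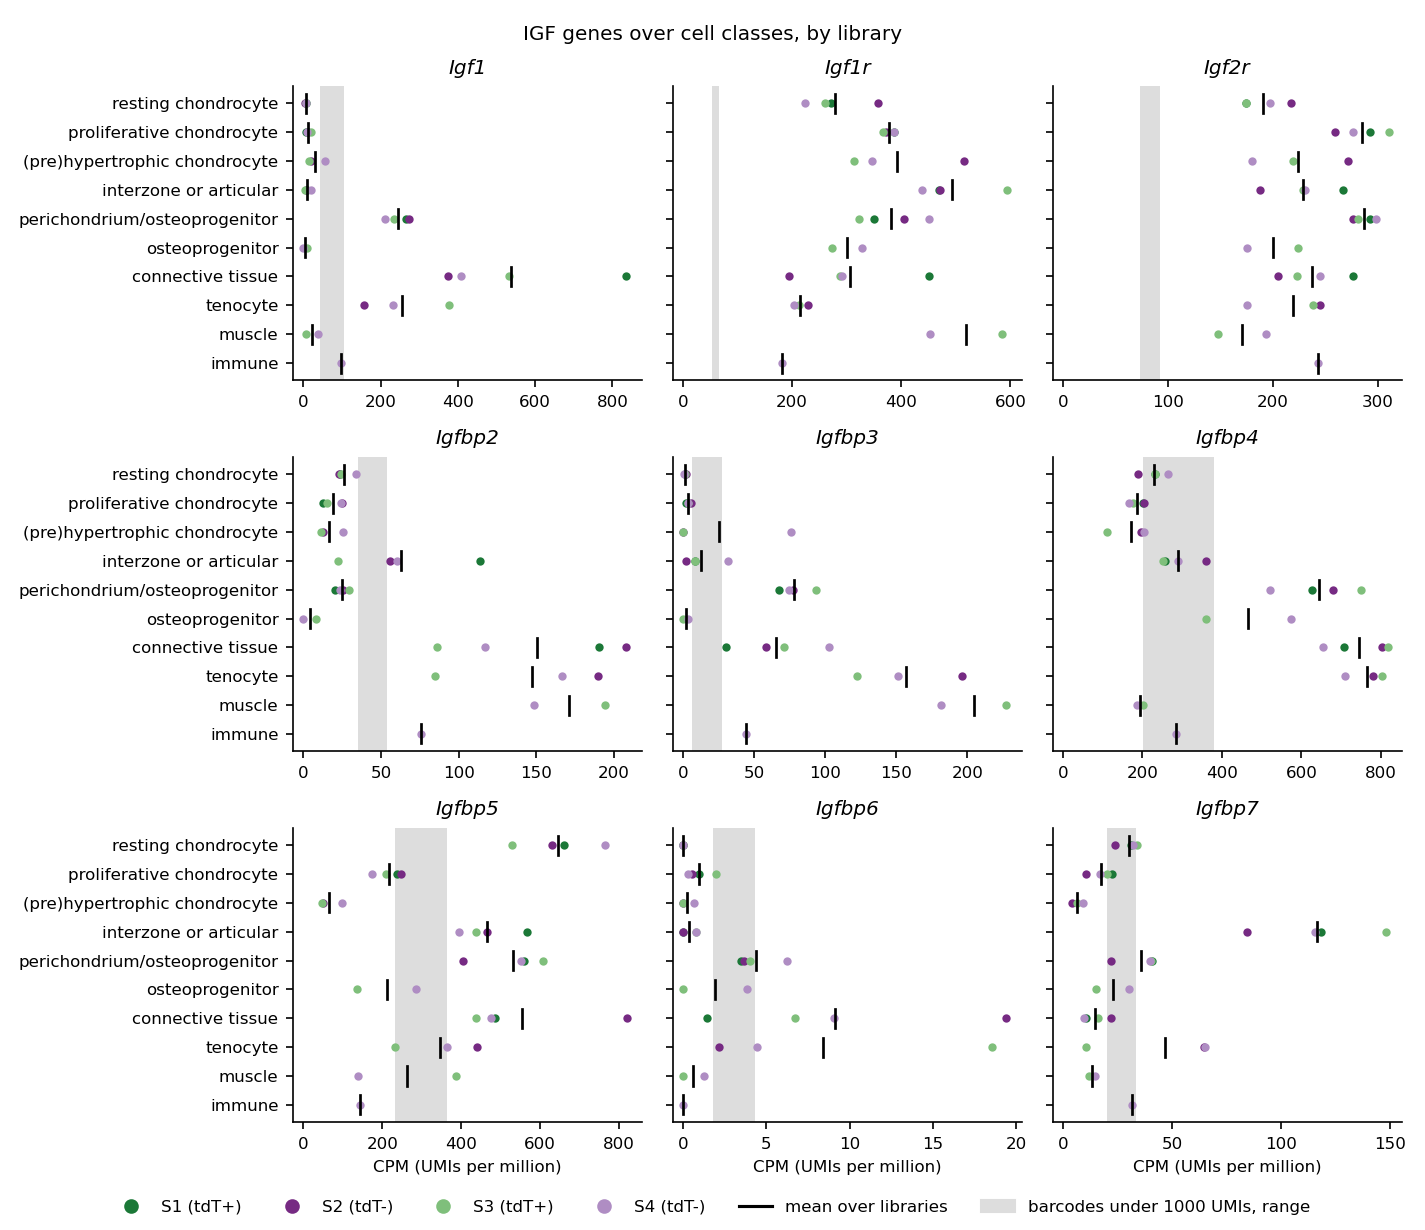
Level of each of the 9 genes in CPM (horizontal axis) by named cell class (vertical axis). Points are libraries with at least 10 cells of the class, both conditions pooled. Black lines are their mean, and the grey band is the range over libraries in barcodes under 1000 UMIs. *Igf1* and *Igfbp4* were high in connective tissue and tenocyte-like cells, *Igfbp5* fell from resting to prehypertrophic or hypertrophic chondrocyte-like cells, and *Igfbp7* peaked in interzone or articular-like cells.

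*Igfbp3*, encoding the main IGF carrier of serum, was at 204 ± 32.2 CPM in muscle-like (n = 2) and 157 ± 37.2 CPM in tenocyte-like cells (n = 3), then at 78.2 ± 10.9 CPM in perichondrium/osteoprogenitor-like cells, which did not overlap with tenocyte-like ones. It was at 1.42 ± 0.541 CPM in resting and 3.55 ± 1.3 CPM in proliferative chondrocyte-like cells. In prehypertrophic or hypertrophic cells it was at 0 in S2 and S3 and 75.9 CPM in S4. Without the cells that carried endothelial markers, where *Igfbp3* was at 172 CPM, the mean over the 3 libraries became 9.45 CPM, from 25.3 ± 43.8. *Igfbp2*, another secreted IGF-binding protein gene, was highest in muscle-like (171 ± 32.2 CPM, n = 2), connective tissue fibroblast-like (150 ± 58.1 CPM, n = 4) and tenocyte-like cells (147 ± 54.9 CPM, n = 3), which overlapped. Resting (26.3 ± 5.32 CPM) and proliferative (19.3 ± 6.13 CPM) chondrocyte-like cells were below the 35.4 to 53.7 CPM of barcodes under 1000 UMIs.

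*Igfbp7* was at 118, 84.6, 148 and 116 CPM in interzone or articular-like cells in S1 to S4, above every library of the other named classes. Tenocyte-like cells came next (64.6, 10.8 and 65.1 CPM in S2 to S4), then perichondrium/osteoprogenitor-like cells at 35.8 ± 9.16 CPM. Within cartilage it went from 30.4 ± 4.54 CPM in resting to 17.6 ± 5.05 in proliferative and 6.71 ± 2.45 CPM in prehypertrophic or hypertrophic chondrocyte-like cells (n = 3), with no overlap between neighbours. By cluster this order did not hold in control pools, where cluster 5 (45.5 and 29.7 CPM) was above the resting cluster (18.7 and 16.6 CPM). *Igfbp6*, whose product prefers IGF-II, was scarcely detected. It reached 9.16 ± 7.53 CPM in connective tissue fibroblast-like cells, and resting chondrocyte-like cells had 0 UMIs of it in 4 of 4 libraries.

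The promoters are shown for *Igfbp5*, whose level differed between zones, for *Igfbp4* and *Igf1*, the connective tissue genes, and for *Igf1r*, expressed throughout. Each is 300 bases from RefSeq on GRCm38.p6, 5′ to 3′ on the gene's strand, from 250 bases before to 50 after the start: *Igfbp5* at chr1:72874816-72875115 (minus strand), *Igfbp4* at chr11:99040994-99041293 (plus), *Igf1* at chr10:87860861-87861160 (plus) and *Igf1r* at chr7:67952007-67952306 (plus). RefSeq's starts of *Igfbp5*, *Igf1* and *Igf1r* differ from those of the GENCODE genes, and distances here are from RefSeq's starts. Capitals mark words searched on both strands, which were the TATA box word TATAAA, its variant spelled TATTTAA, a further variant written TATATA, and the GC box GGGCGG.
Igfbp5: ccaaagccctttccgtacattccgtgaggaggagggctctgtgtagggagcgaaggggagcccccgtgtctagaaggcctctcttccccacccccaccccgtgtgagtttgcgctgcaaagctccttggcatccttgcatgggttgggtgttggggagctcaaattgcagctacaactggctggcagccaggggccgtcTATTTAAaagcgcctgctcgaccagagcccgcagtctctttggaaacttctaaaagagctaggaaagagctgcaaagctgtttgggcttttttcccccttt
Igfbp4: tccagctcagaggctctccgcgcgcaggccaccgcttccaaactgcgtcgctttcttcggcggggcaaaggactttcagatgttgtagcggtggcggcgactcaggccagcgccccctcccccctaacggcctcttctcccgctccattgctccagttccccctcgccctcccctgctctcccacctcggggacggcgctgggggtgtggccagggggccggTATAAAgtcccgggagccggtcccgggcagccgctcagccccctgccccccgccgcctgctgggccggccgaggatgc
Igf1: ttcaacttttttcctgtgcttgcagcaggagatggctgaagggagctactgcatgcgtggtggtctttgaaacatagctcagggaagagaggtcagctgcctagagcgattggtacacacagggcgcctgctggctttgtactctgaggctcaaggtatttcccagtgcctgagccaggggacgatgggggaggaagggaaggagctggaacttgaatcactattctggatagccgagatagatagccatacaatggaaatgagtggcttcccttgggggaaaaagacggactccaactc
Igf1r: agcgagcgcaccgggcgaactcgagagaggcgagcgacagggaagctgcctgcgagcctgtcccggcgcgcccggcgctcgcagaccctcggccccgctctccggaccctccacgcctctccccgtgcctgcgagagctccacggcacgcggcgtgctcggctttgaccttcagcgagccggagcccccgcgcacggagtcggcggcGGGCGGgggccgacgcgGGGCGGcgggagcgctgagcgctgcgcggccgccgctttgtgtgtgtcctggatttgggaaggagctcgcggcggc
The *Igfbp5* window held TATTTAA, 51 bases before RefSeq's start counted to its first base, and *Igfbp4* held TATAAA, 28 bases before. Of 32851 promoters in the table, 4.51% held TATTTAA and 13.6% TATAAA on either strand. *Igf1r* held GGGCGG 2 times (35.7% of all promoters hold it) and none of the TATA-like words. The *Igf2r*, *Igfbp7* and first *Igfbp2* windows were alike in this, with 3, 4 and 3 GC boxes. The *Igf1* window held none of the 4 words. CG dinucleotides numbered 48 for *Igf1r*, 27 for *Igfbp4*, 10 for *Igfbp5* and 6 for *Igf1*, against a median of 7 over all promoters.

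All 9 genes are protein-coding and lie on 7 chromosomes of GRCm38 (GENCODE vM21). *Igfbp5* (chr1:72857932-72874884, minus strand, 4 exons) and *Igfbp2* (chr1:72824503-72852474, plus strand, 4 exons) are neighbours that face each other end to end, 5.46 kb apart. *Igf2r* (chr17:12682406-12769664, minus strand, 48 exons) overlaps by 28.4 kb the antisense noncoding RNA gene *Airn*, whose transcription silences the paternal *Igf2r* allele. The other genes are *Igf1* (chr10:87858265-87937042, 5 exons), *Igf1r* (chr7:67952827-68233668, 21 exons), *Igfbp3* (chr11:7206086-7213923, 5 exons), *Igfbp4* (chr11:99041244-99054392, 4 exons), *Igfbp6* (chr15:102144362-102149511, 4 exons) and *Igfbp7* (chr5:77349240-77408041, 6 exons).

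The design asks whether p21 in cartilage changed gene expression in chondrocytes and in the cells around them. *Igfbp5* was lower in *Pan-Cart-p21MOE* than in control cells of the same library, in the chondrocyte class and outside it, but did not pass the threshold of an adjusted p of 0.05. In resting chondrocyte-like cells, *Pan-Cart-p21MOE* values were 413, 499, 461 and 579 CPM in S1 to S4 and control values 993, 680, 651 and 1291 CPM. The groups did not overlap, and *Pan-Cart-p21MOE* cells were lower in 4 of 4 libraries. What share of all genes had groups without overlap was not computed, here or in the sets below. The log2 fold change was -0.93 (SE 0.18, 95% interval -1.32 to -0.55, edgeR adjusted p = 0.0718). The exact permutation test of 4 against 4 (two-sided) gave p = 0.0286, the smallest it can give. Here and below this test took the 8 pseudobulks as independent, although they came from 2 embryo pools per condition. With the library as a replicate block, the fold change was -0.90 and passed (adjusted p = 0.0394), and DESeq2 also called it (adjusted p = 0.000691). On sums per embryo pool, whose fractions share embryos, it did not pass (-0.85, adjusted p = 0.0581). Males (456 CPM in *Pan-Cart-p21MOE* against 971 in control, means of 2 libraries, the conditions being from different collections) and females (520 against 837 CPM) went the same way.

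Over all chondrocytes, *Igfbp5* was at 267, 284, 233 and 231 CPM in *Pan-Cart-p21MOE* cells in S1 to S4 and at 358, 379, 407 and 290 CPM in control cells, again without overlap. The log2 fold change was -0.55 (SE 0.12, 95% interval -0.80 to -0.30, edgeR adjusted p = 0.0521), and DESeq2 called it (adjusted p = 0.00184). Without the tdT- control replicate 2 it passed by edgeR (-0.64, adjusted p = 0.0289), as it did in resting cells without the tdT- control replicate 1 (-1.11, adjusted p = 0.00529). It was called in 4 of 15 alternatives in each of these sets, with adjusted p up to 0.242 in all chondrocytes, on sums per embryo pool, and up to 0.262 in resting cells, and in neither set did leaving out any of the other 7 pseudobulks give a call. In proliferative chondrocyte-like cells the groups overlapped, at 264, 149, 189 and 182 CPM in *Pan-Cart-p21MOE* and 219, 272, 331 and 155 CPM in control cells (log2 fold change -0.36, SE 0.20, edgeR adjusted p = 0.604). The share of the high-*Igfbp5* cluster 5 in this class was 35.0% to 53.5% in *Pan-Cart-p21MOE* and 22.8% to 47.4% in control pseudobulks. Within cluster 5, the *Pan-Cart-p21MOE* pools had 489 and 406 CPM, below both control pools (779 and 707 CPM).

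**Figure D2:**
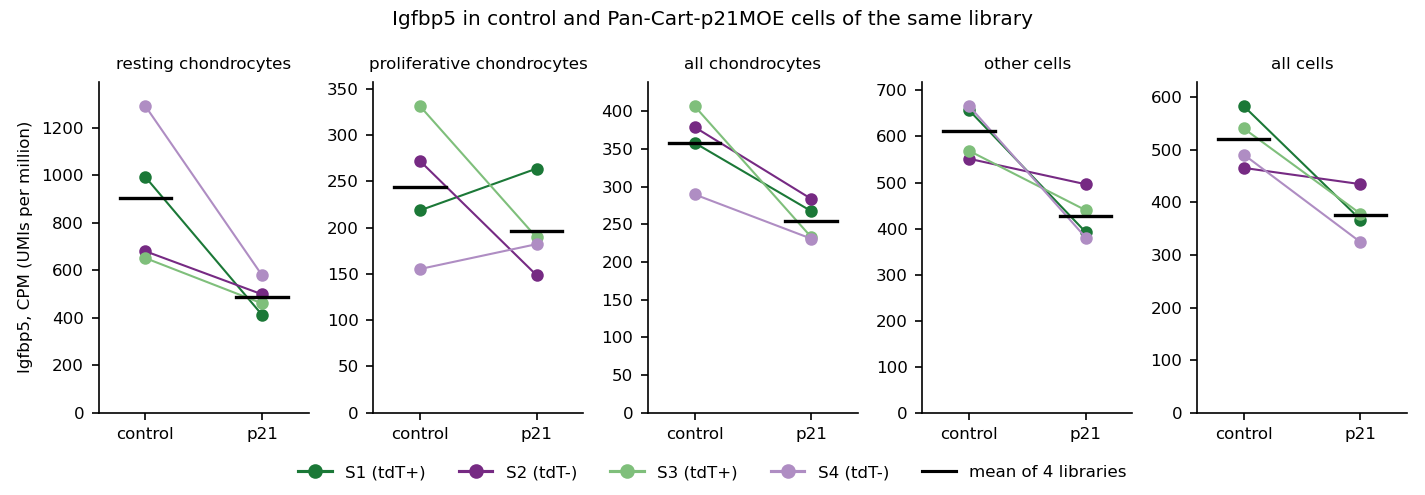
*Igfbp5* in CPM (vertical axes, from 0, scaled per panel) in control and *Pan-Cart-p21MOE* (p21) cells, with a line joining both conditions of a library and black bars for the mean of 4. All lines fell in resting chondrocyte-like cells, all chondrocytes, other cells and all cells, and 2 of 4 fell in proliferative chondrocyte-like cells.

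Outside the chondrocyte class, *Pan-Cart-p21MOE* cells had 392, 496, 440 and 380 CPM of *Igfbp5* and control cells 657, 552, 569 and 666 CPM. The log2 fold change was -0.51 (SE 0.096, 95% interval -0.73 to -0.30), without overlap, at an edgeR adjusted p of 0.479. DESeq2 called it (adjusted p = 0.0035). These cells include unnamed clusters 8 and 9, which fell short of the naming rule and hold much *Igfbp5* (677 ± 269 and 926 ± 332 CPM). Resting chondrocyte was the best-scoring type of both. Cluster 8 held 102 *Pan-Cart-p21MOE* and 55 control cells, and cluster 9 held 65 and 84. Pseudobulks of the whole set held 69 to 508 *Pan-Cart-p21MOE* and 122 to 234 control cells. Unnamed clusters 16 and 22 scored best as proliferative chondrocyte, with 78 and 12 *Pan-Cart-p21MOE* cells and 0 control cells. The set thus held cartilage-like cells, and their part in the difference was not tested. Of 13 clusters with at least 10 cells in each of the 4 pools, 9 had both *Pan-Cart-p21MOE* pools below both control pools, among them resting, connective tissue fibroblast-like and interzone or articular-like cells. For the other members this held in 1 to 4 clusters, and the reverse in 0 to 4. The share over all genes was not computed. All clusters came from the same 4 pools, so they are not independent. The largest gap was in cluster 8 (207 and 469 against 909 and 1465 CPM). Cluster 1, the perichondrium/osteoprogenitor-like cells, went the other way, with 567 and 663 CPM in *Pan-Cart-p21MOE* and 500 and 509 CPM in control pools. In cluster 12, where *Igfbp5* was low, the pools overlapped, with a higher *Pan-Cart-p21MOE* mean (log2 ratio 0.79). Both conditions of a library were in 1 reaction and so shared its free RNA. Whether fewer cells of a kind or less RNA per cell underlie a difference between sums over mixed cells cannot be told apart.

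**Figure D3:**
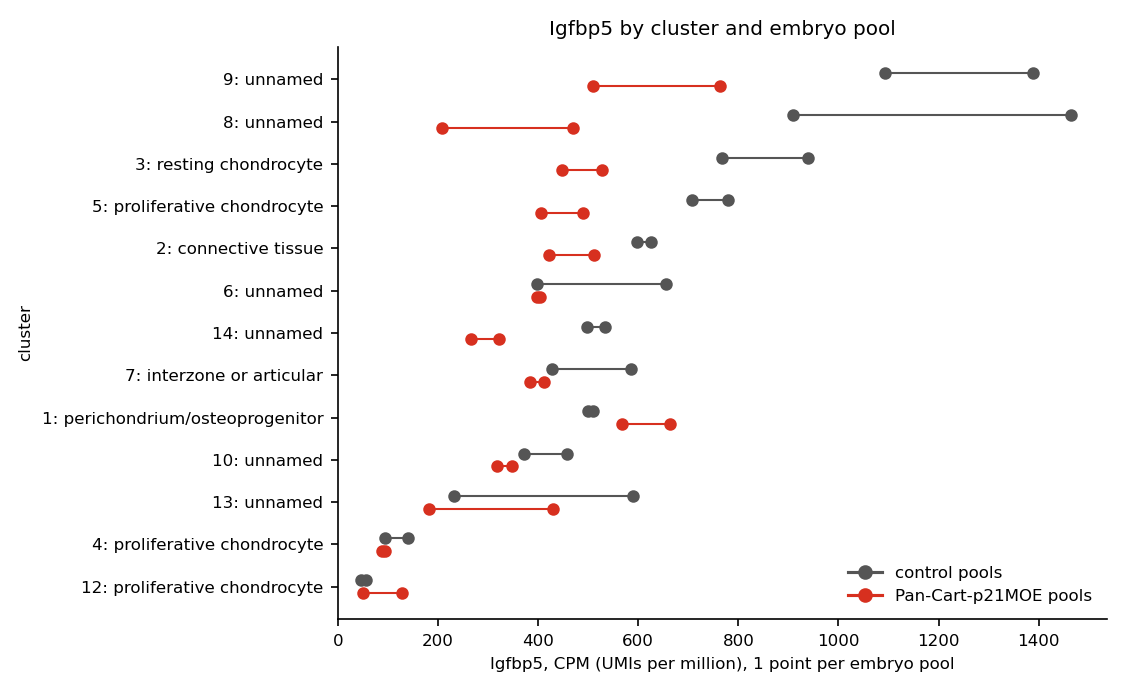
*Igfbp5* in CPM (horizontal axis, from 0) in the 13 clusters (vertical axis) with at least 10 cells in all 4 embryo pools. Grey points are the 2 control pools and red points the 2 *Pan-Cart-p21MOE* pools, with tdT+ and tdT- cells summed. Red points were left of both grey points in 9 clusters and right of them in cluster 1.

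*Igfbp7* was higher in *Pan-Cart-p21MOE* resting chondrocyte-like cells, though not past the threshold. It was at 38.9, 40.3, 42.4 and 38.9 CPM there and 21.1, 17.7, 19.3 and 13.2 CPM in controls, with no overlap. The log2 fold change was 1.11 (SE 0.27, 95% interval 0.53 to 1.69, edgeR adjusted p = 0.182, exact permutation p = 0.0286). These sums are small, and barcodes under 1000 UMIs had 20.1 to 33.5 CPM. Over all chondrocytes the values were 22.4, 27.5, 24.1 and 20.7 against 23.4, 10.8, 15.5 and 11.7 CPM, which overlapped (log2 fold change 0.58, SE 0.22, edgeR adjusted p = 0.308), and outside the chondrocyte class the log2 fold change was -0.19 (SE 0.19, adjusted p = 0.994). *Igfbp4* in resting chondrocyte-like cells was at 267, 216, 240 and 298 CPM against 186, 180, 217 and 166 CPM in controls, overlapping by one value (log2 fold change 0.40, SE 0.15, edgeR adjusted p = 0.508).

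The receptors showed no difference of such size. In all chondrocytes the log2 fold change was -0.09 for *Igf1r* (95% interval -0.31 to 0.13) and 0.11 for *Igf2r* (-0.16 to 0.38), and outside the class 0.03 (-0.13 to 0.18) and 0.07 (-0.09 to 0.22). Outside the class, *Igf1* was at 275, 100, 206 and 197 CPM in *Pan-Cart-p21MOE* and 245, 220, 180 and 248 CPM in control cells (log2 fold change -0.19, SE 0.22, edgeR adjusted p = 0.994). In resting chondrocyte-like cells *Igf1*, *Igfbp3* and *Igfbp6* had too few UMIs to be tested, and in the other chondrocyte tests *Igfbp3* and *Igfbp6*.

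By edgeR, 0 of 7 tested members passed in all chondrocytes, where 0.769% of all genes did, 0 of 6 in resting cells (0.0821%), 0 of 7 in proliferative cells (0.458%), 0 of 9 outside the class (0.0144%) and 0 of 9 in all cells (0.0483%). At an unadjusted p under 0.05 these were 2, 3, 0, 2 and 1 members, beside 1350 of 11049, 459 of 6093, 1003 of 10037, 758 of 13927 and 1082 of 14497 genes. DESeq2 called 1, 1, 0, 1 and 1 members, each time *Igfbp5*, beside 193 of 11724, 23 of 1329, 112 of 11773, 14 of 16988 and 67 of 14949 genes to which it gave an adjusted p. The sets share cells, so their values are not independent. The median log2 fold change of the tested members was 0.11 in all chondrocytes, beside 0.00282 over all genes tested. The difference between fractions in the effect of p21 on chondrocytes was called for 0 of 11921 genes (0%) by edgeR, with 286 at an unadjusted p under 0.05, and for 0 of 23640 genes by DESeq2, with 122. For *Igfbp5* its estimate was -0.22 (SE 0.24) on the log2 scale.

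**Figure D4:**
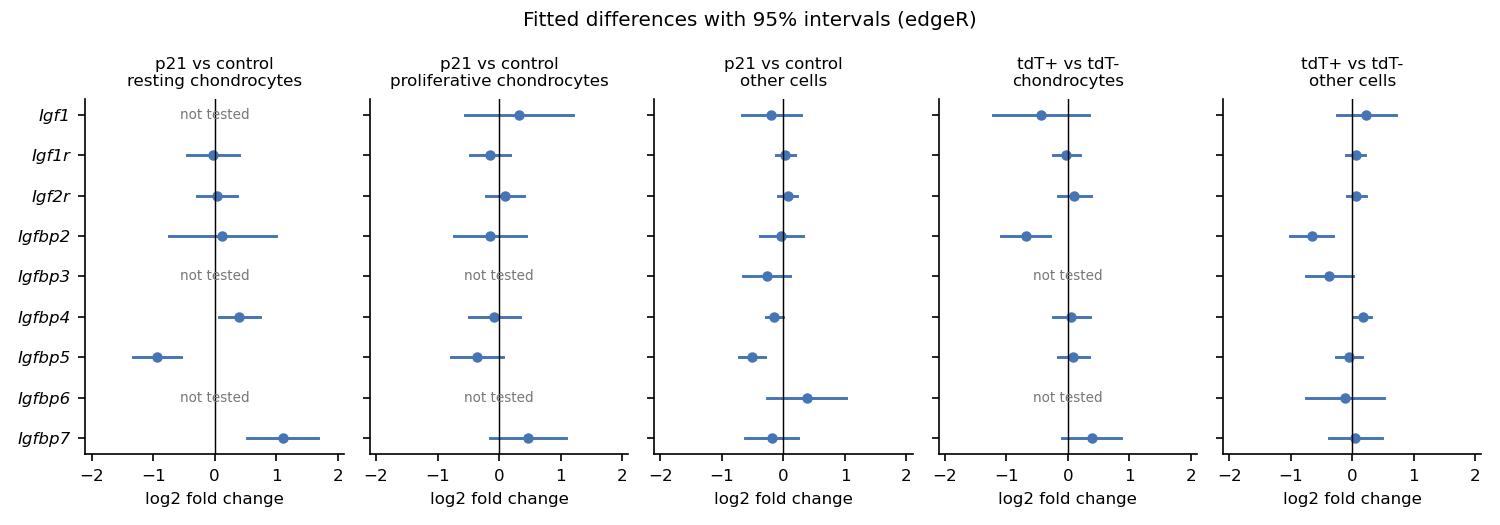
Log2 fold changes (horizontal axis) of the 9 genes (vertical axis) from edgeR, as points with 95% intervals, for *Pan-Cart-p21MOE* against control and tdT+ against tdT-, in 8 pseudobulks each. Intervals leave out 0 for *Igfbp5*, *Igfbp7* and *Igfbp4* in resting chondrocyte-like cells, for *Igfbp5* and *Igfbp4* in other cells between conditions, and for *Igfbp2* in both comparisons and *Igfbp4* in other cells between fractions. None passed adjustment over all genes.

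Between the sorted fractions, *Igfbp2* stood out among the members. In chondrocytes it was at 17.5 and 18.4 CPM in *Pan-Cart-p21MOE* and 12.6 and 13.1 CPM in control tdT+ cells, and at 24.6 and 25.2, and 22.9 and 27.5 CPM in tdT- cells. The fractions did not overlap (log2 fold change -0.69, SE 0.18, exact permutation p = 0.0286), yet at an edgeR adjusted p of 1.00 in a comparison that called 0.0181% of genes, and all values were below the barcodes under 1000 UMIs. Outside the chondrocyte class, tdT+ pseudobulks had 66.4, 73.1, 57.7 and 54.9 CPM and tdT- ones 107, 69.8, 89.2 and 128 CPM, which overlapped. The log2 fold change was -0.66 (SE 0.16, edgeR adjusted p = 0.0922), and DESeq2 called it (adjusted p = 0.0118), as edgeR did without the tdT- control replicate 1 (-0.80, adjusted p = 0.0154). Tenocyte-like cells, among the classes richest in *Igfbp2*, were 2.20% and 2.70% of these cells in S1 and S3 and 6.03% and 14.4% in S2 and S4, and their part in the difference was not tested. *Igfbp4* was slightly higher in tdT+ cells there (log2 fold change 0.17, SE 0.063, edgeR adjusted p = 0.283). Perichondrium/osteoprogenitor-like cells had 644 ± 96.4 CPM of *Igfbp4* and 24.7 ± 3.66 CPM of *Igfbp2*. They were 30.8% and 18.3% of these cells in S1 and S3 and 11.1% and 7.30% in S2 and S4. Tenocyte-like cells, also rich in *Igfbp4* (764 ± 48.9 CPM), had the larger shares in S2 and S4. The part of the make-up in either difference was not tested. By edgeR 0 of 9 members passed in this comparison, where 1.04% of genes did, and 0 of 7 in chondrocytes, with 2 and 1 members at an unadjusted p under 0.05, beside 1673 of 13927 and 364 of 11049 genes. DESeq2 called 1 and 0 members, beside 356 of 16988 and 6 of 23640 genes.

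Of 36 further genes of the pathway (the ligand *Igf2*, insulin receptor genes, adaptors, the PI3K, AKT and FOXO genes, binding protein proteases and growth hormone signalling), 28 were tested in chondrocytes. None passed by edgeR between conditions, where 6 were higher and 1 lower at an unadjusted p under 0.05, beside 1350 of 11049 genes in either direction. Nor did any of 21 in resting, 27 in proliferative and 31 in other cells. Their median log2 fold change in chondrocytes was -0.00378. Between fractions, 1 of 31 passed outside the chondrocyte class. This was *Htra1*, a secreted serine protease that cuts matrix and binding proteins, at 30.4 ± 4.51 CPM in tdT+ and 95.2 ± 20.9 CPM in tdT- pseudobulks (log2 fold change -1.65, SE 0.16, edgeR adjusted p = 0.00375). It was at 353 ± 69.5 CPM in tenocyte-like cells, whose shares in the fractions are those given for *Igfbp2*.

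Genes whose levels most resembled those of a member were sought over 57 pseudobulks (20 classes or clusters, by library), as Pearson's r of log2(CPM + 1). The points share libraries and depth, so r is a description. *Igf1* was followed most closely by *Ebf3* (r = 0.867), *Ebf2* (0.863) and *Meox1* (0.856), transcription factor genes of mesenchyme. *Igfbp4* went with the microfibril genes *Mfap2* (0.918) and *Mfap4* (0.892) and with *Gsta4* (0.877). *Igf2r* went with its own antisense partner *Airn* (0.826), then *Acaca* and *Auts2*. *Igf1r* went with *Kcnq1ot1* (0.840), a noncoding RNA kept in the nucleus, with *Rere* (0.819) and with *Ash1l* (0.782). *Igfbp5* was nearest to *Boc* (0.775), which encodes a hedgehog co-receptor, *Tbx4* (0.758) and *Rimklb* (0.749), *Igfbp7* to *Fzd8* (0.731), *Igfbp2* to *Nnat* (0.773), *Igfbp3* to *Lima1* (0.744) and *Igfbp6* to *Nenf* (0.726).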

How the data were processed

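Single-cell RNA was measured in 4 10x 3′ libraries. The deposited count matrices hold UMI counts per gene and barcode, which per the labels and methods the authors made with Cell Ranger 7.2.0 on GRCm38 (mm10), and whether intronic reads were counted is not given in the sources used here. The libraries had 2541 to 6455 barcodes and 11945062 to 39435830 UMIs, of which barcodes with at least 1000 UMIs and 500 genes and at most 10% mitochondrial UMIs were used. Condition was called from *Xist* or Y-linked genes (at least 2 UMIs, 80% of one kind). Barcodes with both kinds (40 to 132 per library), those with no call (178 to 2747) and the highest 5% of Scrublet scores were left out, since Scrublet's own threshold called 0 to 3 barcodes per library. Cells were clustered with scanpy 1.11.5 (Leiden, resolution 1) without the 9 genes, and clusters were named from marker lists, by rules for ties and single-library clusters that were set after the clusters were seen.

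UMIs were summed per library and condition or class (at least 10 cells) and tested with edgeR 4.0.16 (quasi-likelihood, TMM, filterByExpr, Benjamini-Hochberg, threshold 0.05), with the sorted fraction or condition as covariate. Standard errors and 95% intervals were computed from p and edgeR's total degrees of freedom. These add prior degrees of freedom, estimated over all genes, to the residual ones. Exact permutation tests used log2(CPM + 1) of 4 against 4 pseudobulks, taken as independent. They left out the sharing of embryo pools and of libraries. Since p-values rest on 2 embryo pools per condition, they measure the spread between these pseudobulks. DESeq2 1.42.0, other scalings, filters and units, the replicate block and left-out pseudobulks were alternatives, and the code was tested on simulated data. Both sorted fractions of an embryo pool share embryos. Their deviations from the mean of each fraction over both conditions correlated at 0.159 to 0.367 in chondrocytes and 0.0493 to 0.345 in other cells. A condition effect common to both fractions is part of these values. Both conditions of a library shared a reaction. Their deviations from the mean of each condition over both fractions correlated at -0.0942 to 0.0468 in chondrocytes and 0.0262 to 0.229 in other cells. A fraction effect common to both conditions is part of these.

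The 9 genes, the pathway list and the markers were chosen with earlier results of these data known. All 9 members were named. Pathway genes were named where they passed a test, and for each member the 3 most correlated genes with a mean of at least 20 CPM were sought, of which at least the first is named. Promoter words were chosen with the sequences known.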

Additional observations from a re-analysis of the deposited data

Results flagged for a closer look

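Of 135 groups of 4 values tested for a single value far from the others, 12 held one, and chance alone flags about 1 in 20 groups. Over the 4 libraries, these were *Igf1* in resting chondrocyte-like cells in S2 (5.96 CPM, the others 7.46 to 7.61), *Igfbp2* in the same cells in S4 (34.3 CPM, the others 22.9 to 24.4), *Igfbp5* in connective tissue fibroblast-like cells in S2 (820 CPM, the others 438 to 486) and *Igfbp7* in perichondrium/osteoprogenitor-like cells in S2 (22.1 CPM, the others 39.9 to 40.8). S2 had the fewest kept cells of the 4 libraries.

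Within a condition, *Igfbp2* in control resting chondrocyte-like cells was at 60.6 CPM in S4 (the others 14.0 to 19.3). *Igfbp3* in *Pan-Cart-p21MOE* cells stood apart in S4 in 3 sets, at 0.926 CPM in resting chondrocyte-like cells (the others 0), 77.5 CPM outside the chondrocyte class (the others 39.5 to 43.5) and 55.4 CPM in all cells (the others 30.4 to 32.0). The value in resting cells was 1 UMI in 56 cells. In *Pan-Cart-p21MOE* proliferative chondrocyte-like cells, S2 stood apart with 8.26 CPM of *Igfbp3* (the others 2.39 to 3.31) and 135 CPM of *Igfbp4* (the others 181 to 185). The others were *Igf1r* in all *Pan-Cart-p21MOE* cells in S1 (371 CPM, the others 341 to 346) and *Igfbp6* in all control cells in S3 (2.81 CPM, the others 1.71 to 1.87).

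*Igfbp5* went opposite ways in 2 clusters. In perichondrium/osteoprogenitor-like cells both *Pan-Cart-p21MOE* pools were above both control pools (log2 ratio of the means 0.29), and in resting chondrocyte-like cells both were below (-0.81). The difference between the clusters was not tested.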

How the results depend on the processing

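The log2 fold changes of *Igfbp5* (4 sets outside proliferative cells) and *Igfbp7* (chondrocytes, resting), of *Igfbp4* (resting, other cells, fractions) and of *Igfbp2* (fractions) kept their sign under every alternative run. The number of genes called over the whole table did not. DESeq2 called 193 genes in chondrocytes (85 by edgeR), 23 in resting (5), 112 in proliferative (46), 14 in other (2) and 67 in all cells (7) between conditions, and 6 in chondrocytes (2) and 356 in other cells (145) between fractions. With no filter on low counts these were 554, 143, 388, 294, 457, 128 and 1091, and 34 for the condition by fraction term (0). Summing the fractions of a pool gave 17, 8, 29, 0 and 0 between conditions, and summing the conditions of a library 1 and 77 between fractions. With the replicate block, 10 genes were called in resting, 25 in proliferative and 2 in all cells between conditions, and 8 in chondrocytes between fractions. It called *Igfbp5* in resting cells and changed no other member's call. Without the fraction term, 2 were called in resting and 0 in all cells. Leaving out each pseudobulk gave 24 to 125, 0 to 30, 8 to 80, 1 to 4 and 1 to 12 calls between conditions, 0 to 5 and 39 to 157 between fractions, and 0 to 1 for the condition by fraction term. The cause of these changes was not tested.

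Among named classes in at least 3 libraries, the highest class was kept for 5 of 9 members at resolution 0.5, at 1.5 and with no doublet removal, where 4, 5 and 6 classes were named in place of 7, and for 7 to 8 without each library. *Igf2r* in proliferative chondrocyte-like cells moved from 285 CPM to 233, 321 and 254 CPM at these 3 settings. Among the named classes, *Igfbp5* was highest in resting chondrocyte-like cells under all of these settings. At resolution 0.5 that name covered a wider set of cells, in clusters of 506 (*Gdf5* among its leading genes) and 350 cells. In the main run, unnamed clusters 8 (677 CPM) and 9 (926 CPM) were above resting cells (646 CPM), with overlapping libraries. Over the pseudobulks left out, the log2 fold change of *Igfbp5* ran from -0.64 to -0.50 in chondrocytes and from -1.11 to -0.73 in resting cells. Resting pseudobulks held 13 to 56 cells, so low genes there were not measured well.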

Other observations

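Other genes of the pathway also differed between classes, and these were picked after their levels were seen. *Pappa*, which encodes the protease that cuts IGFBP4, was at 146 ± 91.2 CPM (SD, n = 4 libraries) in connective tissue fibroblast-like cells, the class with much *Igf1* and *Igfbp4*, and at 22.1 ± 4.77 CPM in resting chondrocyte-like cells. *Igf2*, the fetal ligand gene, was expressed throughout the named classes, from 571 ± 18.5 CPM in muscle-like (n = 2) to 1166 ± 66.1 CPM in perichondrium/osteoprogenitor-like cells, and was at 874 ± 31.4 CPM in resting chondrocyte-like cells, where *Igf1* was scarce. *Adam12*, encoding a metalloprotease that can cut binding proteins, was at 396 ± 8.72 CPM in osteoprogenitor-like cells (n = 2) and 37.1 ± 11.7 CPM in resting chondrocyte-like cells. *Socs2*, a feedback inhibitor of growth hormone signalling, was at 12.9 ± 8.57 CPM in resting and 41.4 ± 8.82 CPM in proliferative chondrocyte-like cells, without overlap.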
